A study of Mus musculus with 12 samples.

Results

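The 54 genes described here encode the machinery that copies DNA, supplies its building blocks and rebuilds chromatin behind it, together with the cyclin E and E2F regulators that switch this machinery on. They were taken by gene symbol from a gene count table of 12 bulk RNA-seq libraries, and all 54 were found among its 54532 genes. Marrow cells from C57BL/6 mice of wild-type genotype were cultured for 5 days in medium with GM-CSF and IL-6, which all groups received and which drives the outgrowth of immature myeloid cells. The vehicle group received 0.1% DMSO, and the other groups received 10 µM or 50 µM indole-3-propionic acid (IPA), a tryptophan metabolite made by gut bacteria. The labels give DMSO for vehicle only, so whether the IPA cultures held it is not known. They give a medium change on day 3 for all groups. Each group had 4 libraries. The study asked how IPA changes the generation of immunosuppressive myeloid cells, and the comparisons here ask how the abundance of these transcripts differed between vehicle, the lower dose and the higher dose. No cells were sorted before RNA was extracted, so fewer dividing cells and less of a transcript in each cell cannot be told apart. The labels do not say whether the 4 libraries of a group came from separate mice or cultures, so p-values measure the spread between these libraries, which may be technical.

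Before a cell divides, the origin recognition complex and its partners load a ring of MCM subunits onto DNA in G1 phase, a step called licensing. In S phase kinases and accessory factors convert this ring into a working helicase, polymerases copy the unwound strands with the help of a sliding clamp, and the short fragments of the lagging strand are joined. Transcription factors of the E2F family raise the transcription of many of these genes at the G1/S transition, and in bone marrow cultures the transcripts are most abundant in cycling progenitors and fall as myeloid cells mature.

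Levels are given as counts scaled to the size of the library (CPM), corrected for library composition by the TMM method. Libraries held between 20451312 and 28038612 counts. Gene tests were run on the 14894 genes above 0.5 CPM in at least 2 of the 12 libraries, and all 54 replication genes passed this filter with at least 30 counts in every library. The cultures carried their labelled identity: the 10 myeloid marker genes summed to 10752 to 11101 CPM in vehicle, 11644 to 12913 CPM at 10 µM and 12945 to 14417 CPM at 50 µM. The 8 erythroid markers summed to at most 2.54 CPM in any library. The vehicle library of replicate 4 stood apart from the other vehicle libraries, with the lowest levels of *Rfc1* and *Pole* and the highest of *Rpa3*, *Orc6* and *Gmnn* among them, and the count of genes that fell at 50 µM was 22 without it against 20 with it.

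Per base of exon, the sliding clamp gene *Pcna* was the most abundant of the 54 in vehicle cultures, at 106 RPKM, which divides CPM by exon length. It was followed by *Rrm2*, a subunit of ribonucleotide reductase, at 82.8 RPKM and by the helicase subunit genes *Mcm5*, *Mcm3* and *Mcm6* at 69.6, 63.7 and 61.5 RPKM. The lowest were *Orc1* at 3.09 RPKM and the flap endonuclease gene *Fen1* at 0.889 RPKM. Exons of genes on the opposite strand covered 84.2% of the *Fen1* exon bases, 67.3% of those of *Gins2* and 52.5% of those of *Chaf1a*, and the strand setting used in counting is not given in the sources used here, so the levels of these 3 genes are uncertain. The other opposite-strand overlaps above 10% concerned *Ccne2* (17.4%), *Rfc2* (15.1%), *Rfc4* (12.7%), *Orc1* (10.8%) and *Rfc5* (10.7%). Overlaps on both strands together also passed 10% for *Rnaseh2a* (14.7%) and *Mcm7* (12.6%). *Pcna* also has a pseudogene copy, *Pcna-ps2*, which held 66 to 204 counts per library against 4359 to 7269 for *Pcna*.

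Transcripts of the replication programme were less abundant after culture with 50 µM IPA. The paper reports that cell viability was slightly reduced at the higher dose and unaffected at the lower dose. For this reason its authors centred their own analysis of the RNA on the lower dose. Whether reduced viability had a part in the fall of these transcripts was not tested. The 54 genes together summed to 4443 to 4837 CPM in the vehicle libraries, 4219 to 4464 CPM at 10 µM and 3673 to 3849 CPM at 50 µM. Every 50 µM library lay below every library of the other groups, while the 10 µM and vehicle ranges overlapped by 1 pair of libraries. The mean summed level was 94.3% of the vehicle mean at 10 µM and 81.0% at 50 µM. The 6 subunits of the MCM ring summed to 1267 to 1429 CPM in vehicle and 929.8 to 1088 CPM at 50 µM, or 75.1% of the vehicle mean.

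**Figure D1:**
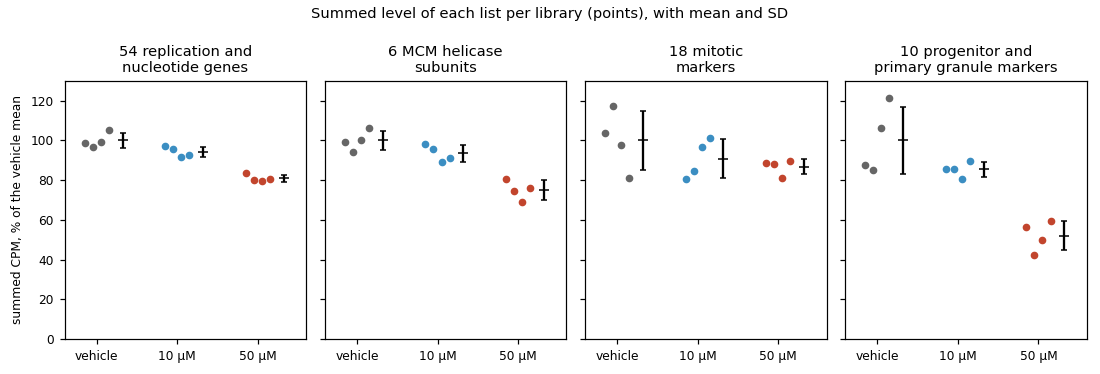
Summed CPM of each gene list in the 12 libraries as a percentage of its vehicle mean (vertical axis), by group (horizontal axis). Points are libraries, and the black marks give the mean and SD of 4 libraries. The 54 replication genes averaged 81.0% of vehicle at 50 µM, with all 4 libraries below the other groups. In the mitotic list 1 vehicle library, replicate 4, lay within the 50 µM range, and the other 3 lay above it.

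Against vehicle, 20 of the 54 genes fell at 50 µM and 0 rose by edgeR's quasi-likelihood test at an adjusted p under 0.05, where 6.5% of all 14894 genes tested fell, 7.0% rose and 13.5% passed in either direction. The 20 genes are 37.0% of the 54. At an unadjusted p under 0.05 the counts were 30 lower and 0 higher, beside 13.5% and 14.4% of all genes, and DESeq2 and limma-voom called 24 and 21 genes, all lower. A negative log2 fold change was found for 48 of the 54, against 48.2% of all genes, and the median was -0.25 against 0.01 for all genes tested. All 4 of the 50 µM libraries lay below all 4 vehicle libraries for 28 of the 54, against 10.5% of all genes, and above them for 1, *Pold1*, against 9.45%. The falls were moderate in size, from -0.31 for *Prim2* to -0.67 for *Ccne2* on the log2 scale.

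At 10 µM, 0 of the 54 genes passed the same edgeR test against vehicle, where 0.0806% of all genes fell, 0.329% rose and 0.41% passed in either direction. DESeq2 and limma-voom also called 0 of the 54. Without adjustment 6 of the 54 were lower, against 3.36% of all genes, and 0 were higher, against 5.42%. The 6 were *Cdc6*, *Cdc7*, *Mcm10*, *E2f2*, *Uhrf1* and *Chaf1a*. A negative log2 fold change was found for 45 of the 54, against 51.8% of all genes, with a median of -0.09 against -0.01 for all genes. Without vehicle replicate 4 the count was 36 and the median -0.04. The smallest adjusted p was 0.304, for *Uhrf1*. Groups did not overlap for 3 genes, all lower at 10 µM (*Cdc6*, *E2f2* and *Uhrf1*), where 2.56% of all genes were lower and 3.57% higher in this way.

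**Figure D2:**
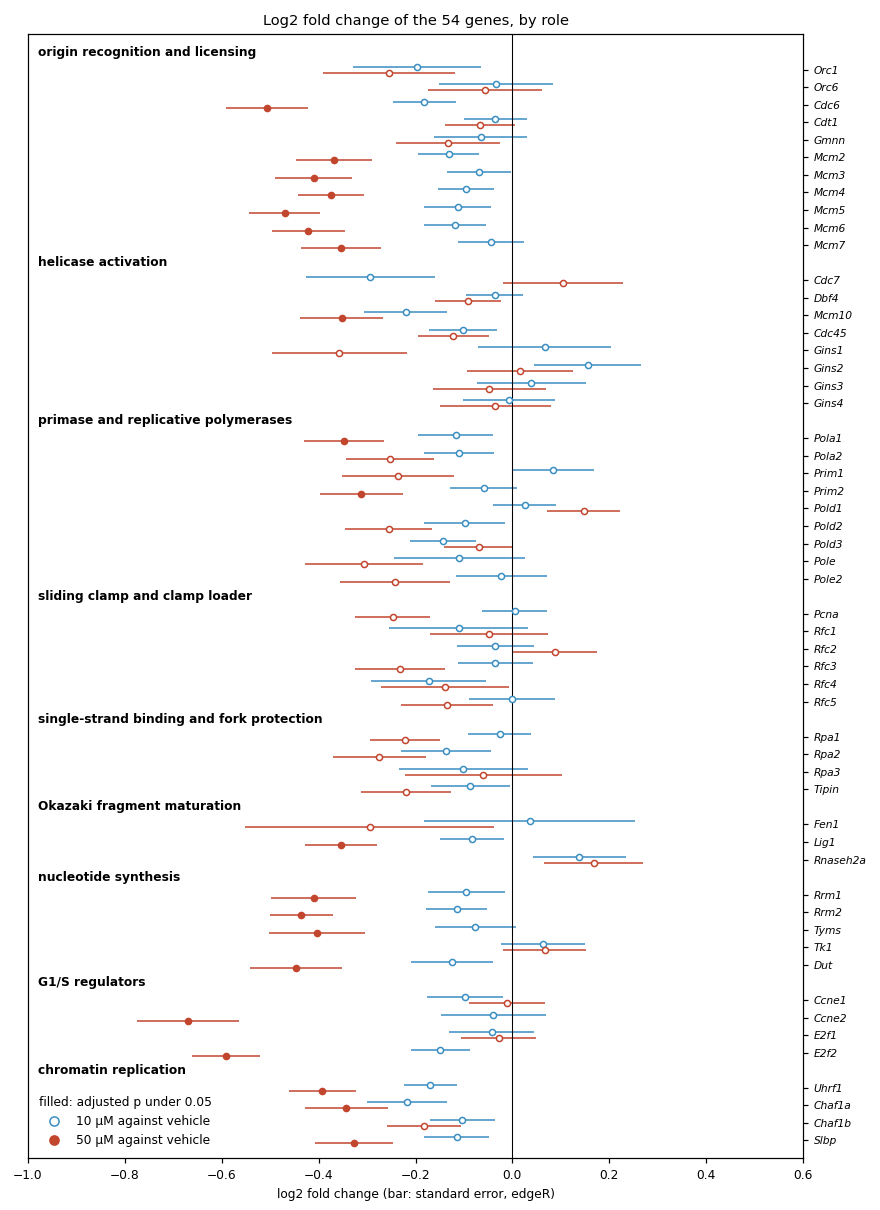
Log2 fold change against vehicle (horizontal axis) of each of the 54 genes, grouped by role, at 10 µM IPA (blue) and 50 µM IPA (red), with the standard error as a bar. Filled points have an adjusted p under 0.05. The 20 filled points are all at 50 µM and all left of 0, and 7 of them belong to the 11 genes of origin recognition and licensing. Of all genes tested, 6.5% fell at 50 µM.

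Among the 11 genes of origin recognition and licensing, 7 fell at 50 µM against vehicle, beside 6.5% of all genes: *Cdc6* and all 6 subunits of the MCM ring. Gene coordinates given here are on GRCm38 from GENCODE M21. *Cdc6* (ENSMUSG00000017499, chr11:98907801-98923940, + strand), the loader that recruits the MCM ring to origins, had 44.8, 49.7, 48.0 and 46.2 CPM in the vehicle libraries, 42.4, 42.7, 39.2 and 42.1 CPM at 10 µM and 36.9, 34.1, 29.3 and 31.8 CPM at 50 µM. The 3 groups did not overlap and were ordered by dose. Its log2 fold change was -0.51 ± 0.08 (SE, adjusted p = 0.00166) at 50 µM and -0.18 ± 0.07 (SE, adjusted p = 0.399) at 10 µM, the latter past no threshold after adjustment. *Mcm5* (ENSMUSG00000005410, chr8:75109569-75128439, + strand), a subunit of the ring, had 286, 259, 277 and 288 CPM in the vehicle libraries, 277, 271, 235 and 245 CPM at 10 µM and 220.5, 196, 189 and 193 CPM at 50 µM. All 50 µM libraries lay below the other 8, and the 10 µM and vehicle libraries overlapped. Its log2 fold change at 50 µM was -0.47 ± 0.07 (SE, adjusted p = 0.00101). *Mcm6* (ENSMUSG00000026355, chr1:128331590-128359664, - strand), a second subunit of the ring, had 275, 271, 286 and 315 CPM in the vehicle libraries, 271, 275, 256 and 255 CPM at 10 µM and 222, 208, 198 and 224 CPM at 50 µM. The 50 µM libraries again lay below all others, with a log2 fold change of -0.42 ± 0.07 (SE, adjusted p = 0.00242) against vehicle. The remaining ring subunits fell by a similar amount, with log2 fold changes of -0.41 for *Mcm3*, -0.38 for *Mcm4*, -0.37 for *Mcm2* and -0.35 for *Mcm7*, and with no overlap between 50 µM and either other group.

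The other licensing genes did not pass the test. *Cdt1*, which works beside *Cdc6* in loading the ring, had 53.3, 50.9, 53.1 and 48.9 CPM in the vehicle libraries, 53.2, 48.0, 49.1 and 50.8 CPM at 10 µM and 50.7, 45.9, 48.3 and 50.9 CPM at 50 µM. Its groups overlapped, with a log2 fold change of -0.07 ± 0.07 (SE, adjusted p = 0.601) at 50 µM. Geminin, encoded by *Gmnn*, inhibits the Cdt1 protein and had a log2 fold change of -0.13 ± 0.11 (SE, adjusted p = 0.461). The origin recognition subunits *Orc1* and *Orc6* had log2 fold changes of -0.25 ± 0.14 (SE, adjusted p = 0.245) and -0.06 ± 0.12 (SE, adjusted p = 0.805).

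**Figure D3:**
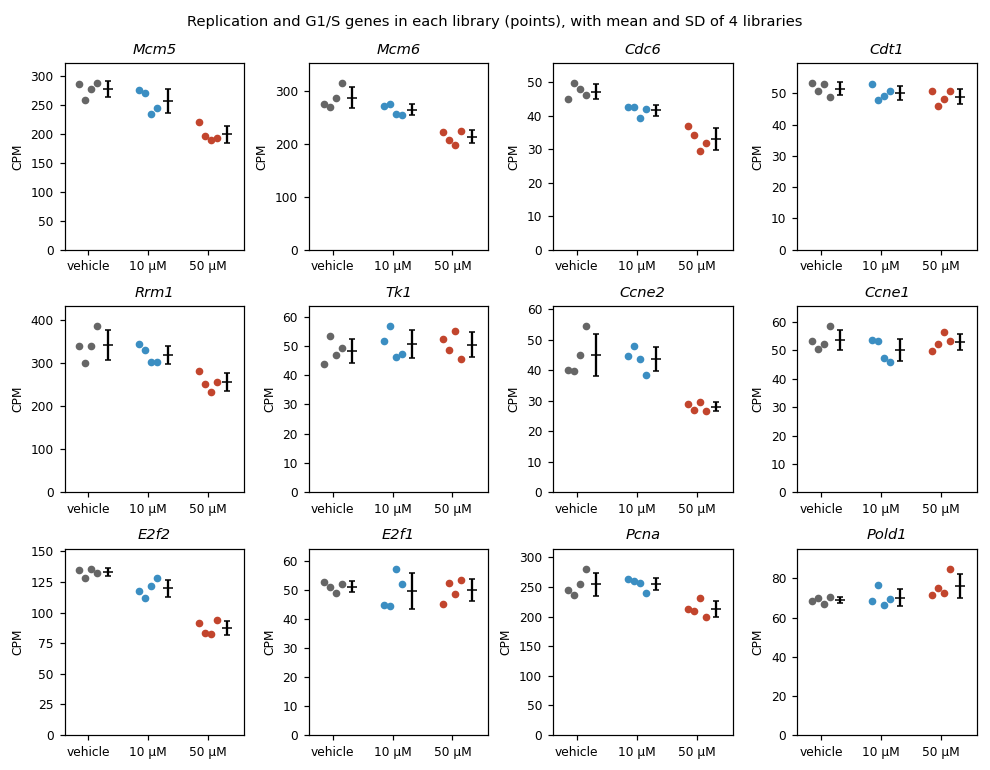
CPM (vertical axes, from 0) of 12 of the genes in each library, by group (horizontal axes). Points are libraries, and black marks give the mean and SD of 4 libraries. *Mcm5*, *Mcm6*, *Cdc6*, *Rrm1*, *Ccne2* and *E2f2* lay lower in all 50 µM libraries than in all others, whereas *Cdt1*, *Tk1*, *Ccne1* and *E2f1* overlapped between groups.

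Of the 8 genes that activate the loaded helicase, 1 fell at 50 µM against vehicle, near the 6.5% of all genes that fell. This was *Mcm10* (ENSMUSG00000026669, chr2:4989714-5012791, - strand), a factor needed for origin firing, which had 62.0, 63.4, 51.3 and 52.0 CPM in the vehicle libraries, 46.4, 52.5, 48.6 and 49.0 CPM at 10 µM and 45.8, 43.8, 44.7 and 43.8 CPM at 50 µM. All 50 µM libraries lay below the others, and 1 library at 10 µM lay within the vehicle range. Its log2 fold change against vehicle was -0.35 ± 0.08 (SE, adjusted p = 0.0149), and it was no longer past the threshold without vehicle replicate 1 (adjusted p = 0.0513). *Dbf4* (ENSMUSG00000002297, chr5:8396973-8422716, - strand), the activating subunit of the Cdc7 kinase, had 70.9, 72.0, 67.8 and 72.2 CPM in the vehicle libraries, 70.5, 68.6, 65.8 and 71.0 CPM at 10 µM and 63.4, 65.1, 69.8 and 66.0 CPM at 50 µM. These ranges overlapped, with a log2 fold change of -0.09 ± 0.07 (SE, adjusted p = 0.422). The kinase gene itself, *Cdc7* (ENSMUSG00000029283, chr5:106964322-106984432, + strand), had 17.3, 24.8, 20.8 and 17.5 CPM in the vehicle libraries, 14.1, 15.5, 17.1 and 18.9 CPM at 10 µM and 18.4, 22.0, 23.4 and 22.0 CPM at 50 µM. Its lowest libraries were at 10 µM, and the 50 µM libraries lay within the vehicle range. Its log2 fold change was -0.29 ± 0.13 (SE, adjusted p = 0.563) at 10 µM and 0.10 ± 0.12 (SE, adjusted p = 0.632) at 50 µM. *Gins1* (ENSMUSG00000027454, chr2:150905400-150931280, + strand), a subunit of the GINS complex that travels with the helicase, had 14.0, 13.5, 14.9 and 18.6 CPM in the vehicle libraries, 18.5, 17.8, 13.1 and 14.5 CPM at 10 µM and 14.9, 11.0, 10.3 and 11.2 CPM at 50 µM. A single 50 µM library, replicate 1, lay within the ranges of the other groups, and the log2 fold change against vehicle was -0.36 ± 0.14 (SE, adjusted p = 0.112). Without that library *Gins1* was called lower against vehicle (adjusted p = 0.035). *Cdc45*, *Gins2*, *Gins3* and *Gins4*, which encode the other partners of the ring in the working helicase, had log2 fold changes between -0.12 and 0.02 and none passed the test.

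Of the 9 primase and polymerase genes, *Pola1* and *Prim2* fell at 50 µM against vehicle, beside 6.5% of all genes. Their products are the catalytic subunit of polymerase alpha and the large primase subunit, which together start each new strand. *Pola1* (ENSMUSG00000006678, chrX:93304767-93632155, - strand) had 73.7, 62.5, 61.8 and 62.3 CPM in the vehicle libraries, 56.6, 65.2, 60.0 and 58.3 CPM at 10 µM and 52.6, 53.4, 46.7 and 50.9 CPM at 50 µM. No 50 µM library reached the level of any other library, and the highest value was vehicle replicate 1. The log2 fold change was -0.35 ± 0.08 (SE, adjusted p = 0.0141), and that of *Prim2* was -0.31 ± 0.09 (SE, adjusted p = 0.0275). The *Prim2* call was lost without vehicle replicate 3 and without 50 µM replicate 2, 3 or 4, with adjusted p up to 0.0786. *Pold1* (ENSMUSG00000038644, chr7:44532746-44548849, - strand), the catalytic subunit of polymerase delta, had 68.6, 70.0, 66.9 and 70.5 CPM in the vehicle libraries, 68.4, 76.5, 66.6 and 69.4 CPM at 10 µM and 71.4, 75.1, 72.3 and 85.0 CPM at 50 µM. All 4 of its 50 µM libraries lay above the vehicle libraries, by a log2 fold change of 0.15 ± 0.08 (SE, adjusted p = 0.224) that did not pass the test. *Pola2*, *Prim1*, *Pold2*, *Pole* and *Pole2* had log2 fold changes between -0.31 and -0.24, and *Pold3* one of -0.07, none past the threshold in edgeR's test. DESeq2 called *Pold2* as well.

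Of the 6 genes of the clamp and its loader, 0 passed edgeR's test against vehicle and 2 were lower at an unadjusted p under 0.05, beside 13.5% of all genes, while DESeq2 and limma-voom each called 1, *Pcna*. *Pcna* (ENSMUSG00000027342, chr2:132249162-132253314, - strand) encodes the clamp that holds polymerases on DNA and had 245, 236, 255 and 281 CPM in the vehicle libraries, 263, 261, 257 and 239.9 CPM at 10 µM and 213, 209, 231 and 199.8 CPM at 50 µM. All its 50 µM libraries lay below the rest, and its log2 fold change against vehicle was -0.25 ± 0.08 (SE, adjusted p = 0.0511), just outside the threshold. The call was made without vehicle replicate 2 (adjusted p = 0.0282) and without 50 µM replicate 3 (0.0371). *Rfc3*, a subunit of the loader, also lay lower in all 50 µM libraries, with a log2 fold change of -0.23 ± 0.09 (SE, adjusted p = 0.12). The other loader subunits, *Rfc1*, *Rfc2*, *Rfc4* and *Rfc5*, had log2 fold changes between -0.14 and 0.09 with overlapping groups.

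Among the 4 genes of single-strand binding and fork protection, 0 passed edgeR's test and 3 were lower at an unadjusted p under 0.05, beside 13.5% of all genes, while DESeq2 called 2, *Rpa1* and *Rpa2*, and limma-voom 0. *Rpa1* (ENSMUSG00000000751, chr11:75298166-75348324, - strand), the largest subunit of the protein that coats single-stranded DNA, had 150.1, 144, 154 and 167 CPM in the vehicle libraries, 156, 154, 142 and 152 CPM at 10 µM and 136, 135, 126 and 127 CPM at 50 µM. The 50 µM libraries lay below all others, with a log2 fold change of -0.22 ± 0.07 (SE, adjusted p = 0.057) against vehicle that passed the threshold without vehicle replicate 2 (adjusted p = 0.0363). For *Rpa2*, *Tipin* and *Rpa3* the log2 fold changes were -0.27, -0.22 and -0.06. In the vehicle group all 4 were highest in replicate 4, and the summed level of the 4 genes at 50 µM was 85.5% of vehicle, or 89.1% without that library.

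*Lig1* (ENSMUSG00000056394, chr7:13277283-13311433, + strand), the ligase that seals the fragments of the lagging strand, was the 1 gene of the 3 of this step to fall at 50 µM against vehicle, beside 6.5% of all genes. It had 123, 113, 115 and 114 CPM in the vehicle libraries, 104, 105, 111 and 119 CPM at 10 µM and 95.5, 91.7, 80.5 and 94.6 CPM at 50 µM. No 50 µM library overlapped another group, and the log2 fold change against vehicle was -0.35 ± 0.07 (SE, adjusted p = 0.0074). *Rnaseh2a*, which helps to remove RNA primers, had a log2 fold change of 0.17 ± 0.10 (SE, adjusted p = 0.312), and *Fen1*, with 30 counts in its lowest library, one of -0.29 ± 0.26 (SE, adjusted p = 0.499). With 3 genes, a single call says little beside the share of all genes.

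In nucleotide supply 4 of the 5 genes fell at 50 µM against vehicle, beside 6.5% of all genes. *Rrm1* (ENSMUSG00000030978, chr7:102441695-102469771, + strand), the large subunit of the reductase that makes deoxynucleotides, had 339, 301, 339 and 386 CPM in the vehicle libraries, 344, 330.0, 303 and 301 CPM at 10 µM and 281, 251, 233 and 257 CPM at 50 µM. Every 50 µM library lay below every other library, and the log2 fold change was -0.41 ± 0.09 (SE, adjusted p = 0.00774). Its partner *Rrm2* had 218, 228, 229 and 243 CPM in the vehicle libraries, 226, 218, 201 and 203 CPM at 10 µM and 170.2, 163, 171 and 171 CPM at 50 µM. The 50 µM libraries were close together and separate from the rest, at a log2 fold change of -0.44 ± 0.07 (SE, adjusted p = 7.8e-04). *Tyms* (ENSMUSG00000025747, chr5:30058202-30073617, - strand), which makes thymidylate from deoxyuridylate, had 62.8, 66.1, 60.4 and 73.7 CPM in the vehicle libraries, 65.3, 66.2, 62.8 and 55.0 CPM at 10 µM and 51.3, 52.3, 53.6 and 40.6 CPM at 50 µM. *Dut* (ENSMUSG00000027203, chr2:125247190-125258608, + strand), which removes dUTP before it can enter DNA, had 69.5, 65.6, 76.6 and 83.3 CPM in the vehicle libraries, 72.3, 69.3, 66.7 and 62.1 CPM at 10 µM and 56.8, 53.6, 58.0 and 47.0 CPM at 50 µM. Both genes were separate from the other groups at 50 µM, with log2 fold changes of -0.40 ± 0.10 (SE, adjusted p = 0.0162) for *Tyms* and -0.45 ± 0.10 (SE, adjusted p = 0.00774) for *Dut*. The fifth gene, the thymidine salvage kinase *Tk1*, had 43.8, 53.5, 47.0 and 49.2 CPM in the vehicle libraries, 51.7, 56.8, 46.4 and 47.4 CPM at 10 µM and 52.3, 48.7, 55.1 and 45.5 CPM at 50 µM. Its groups overlapped throughout, at a log2 fold change of 0.07 ± 0.09 (SE, adjusted p = 0.668).

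The 2 largest fold changes of the 54 at 50 µM against vehicle were found among the 4 G1/S regulators. There 1 cyclin E gene and 1 E2F gene fell, beside 6.5% of all genes, and their relatives did not pass the test. *Ccne2* (ENSMUSG00000028212, chr4:11191351-11204779, + strand), which encodes cyclin E2, had 40.1, 39.9, 45.1 and 54.6 CPM in the vehicle libraries, 44.7, 47.8, 43.7 and 38.5 CPM at 10 µM and 28.9, 27.1, 29.7 and 26.8 CPM at 50 µM. The 50 µM libraries lay well below the rest, at a log2 fold change of -0.67 ± 0.11 (SE, adjusted p = 0.00108). The cyclin E1 gene *Ccne1* had 53.5, 50.4, 52.2 and 58.7 CPM in the vehicle libraries, 53.6, 53.4, 47.5 and 46.1 CPM at 10 µM and 49.8, 52.3, 56.5 and 53.3 CPM at 50 µM, with overlapping groups and a log2 fold change of -0.01 ± 0.08 (SE, adjusted p = 0.952). *E2f2* (ENSMUSG00000018983, chr4:136172394-136196057, + strand), an activating E2F factor, had 135, 128, 136 and 132 CPM in the vehicle libraries, 117, 112, 122 and 128 CPM at 10 µM and 91.1, 83.1, 82.8 and 93.9 CPM at 50 µM. All 50 µM libraries lay below the others, and the 10 µM and vehicle groups met, without crossing, at 128 CPM. Its log2 fold change was -0.59 ± 0.07 (SE, adjusted p = 1.5e-04) at 50 µM and -0.15 ± 0.06 (SE, adjusted p = 0.496) at 10 µM. *E2f1* had 52.9, 51.1, 48.8 and 52.0 CPM in the vehicle libraries, 45.0, 44.4, 57.4 and 52.0 CPM at 10 µM and 45.3, 52.5, 48.6 and 53.3 CPM at 50 µM, with a log2 fold change of -0.03 ± 0.08 (SE, adjusted p = 0.858). The difference in response between the members of each pair was not tested.

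Of the 4 genes that rebuild chromatin behind the fork, 3 fell at 50 µM against vehicle, beside 6.5% of all genes. *Uhrf1* (ENSMUSG00000001228, chr17:56303321-56323486, + strand), which guides maintenance DNA methylation to newly copied DNA, had 192, 188, 185 and 180.2 CPM in the vehicle libraries, 172, 165, 161 and 165 CPM at 10 µM and 147, 141, 128 and 149 CPM at 50 µM. As for *Cdc6*, the 3 groups did not overlap and the vehicle libraries were the highest. The log2 fold changes were -0.17 ± 0.05 (SE, adjusted p = 0.304) at 10 µM and -0.39 ± 0.07 (SE, adjusted p = 0.00241) at 50 µM. *Chaf1a*, the large subunit of the histone chaperone CAF-1, and *Slbp*, which binds the stem loop of histone mRNAs, had log2 fold changes of -0.34 ± 0.09 (SE, adjusted p = 0.0178) and -0.33 ± 0.08 (SE, adjusted p = 0.0176). *Chaf1a* was no longer called without vehicle replicate 1 or 3 or without 50 µM replicate 2, with adjusted p up to 0.0645, and *Slbp* without 50 µM replicate 4 (adjusted p = 0.063). The second chaperone subunit, *Chaf1b*, was lower in all 50 µM libraries at a log2 fold change of -0.18 ± 0.08 (SE, adjusted p = 0.137) that did not pass the test.

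**Figure D4:**
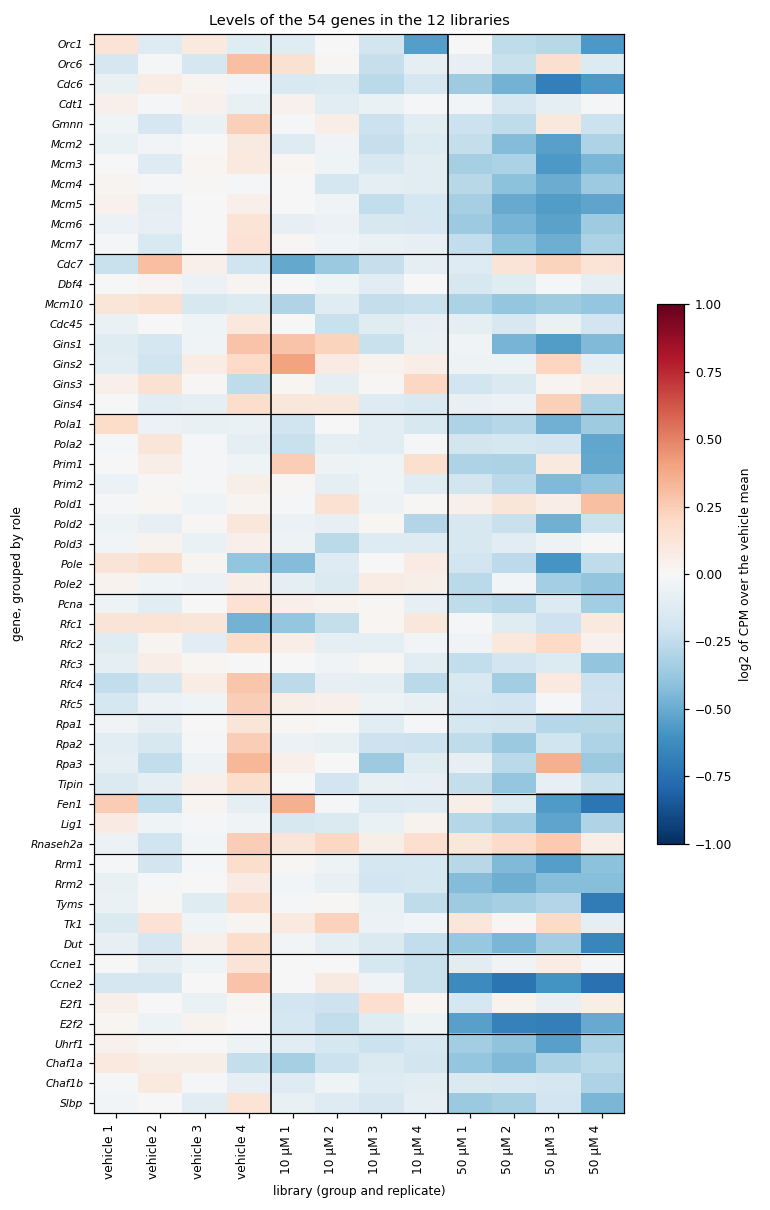
Log2 of CPM over the vehicle mean (colour) for the 54 genes (rows, grouped by role) in the 12 libraries (columns). Blue cells lie below the vehicle mean and red cells above it. The MCM ring, *Cdc6*, *Rrm1*, *Rrm2*, *Ccne2* and *E2f2* are blue in all 4 of the 50 µM libraries, and *Rfc1* and *Pole* are low in vehicle replicate 4.

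The higher dose was also compared with the lower dose, a contrast that shares its 50 µM libraries with the previous one. Here 20 of the 54 genes fell and 1 rose, where 7.85% of all genes fell, 7.52% rose and 15.4% passed in either direction. At an unadjusted p under 0.05 they were 23 lower and 1 higher, beside 14.6% and 14.9% of all genes. The count of 21 dropped to 13, all lower, when 10 µM replicate 2 was left out, and 12 of the 21 were called whichever library was left out. Leaving out any 1 of the 8 libraries ended the call of at least 1 of the other 9, which were *Mcm2*, *Cdc7*, *Gins1*, *Pola1*, *Rpa1*, *Lig1*, *Tyms*, *Uhrf1* and *Slbp*, with adjusted p up to 0.142 for *Slbp* without 50 µM replicate 4. The median log2 fold change was -0.15 against 0.01 for all genes, and 23 genes were lower and 0 higher without overlap, against 10.9% and 9.43% of all genes. A negative log2 fold change was found for 44 of the 54, against 48.6% of all genes. The genes called lower both here and against vehicle, 2 contrasts that share the 50 µM libraries, were *Cdc6*, the 6 ring subunits, *Pola1*, *Lig1*, *Rrm1*, *Rrm2*, *Tyms*, *Dut*, *Ccne2*, *E2f2*, *Uhrf1* and *Slbp*. The log2 fold changes from 10 µM to 50 µM were -0.63 ± 0.08 (SE, adjusted p = 7.8e-05) for *Ccne2*, -0.45 ± 0.07 (SE, adjusted p = 4.0e-04) for *E2f2*, -0.36 ± 0.07 (SE, adjusted p = 0.00281) for *Mcm5* and -0.33 ± 0.09 (SE, adjusted p = 0.0228) for *Tyms*. They were -0.27 ± 0.07 (SE, adjusted p = 0.017) for *Lig1*, -0.23 ± 0.07 (SE, adjusted p = 0.0388) for *Pola1* and -0.23 ± 0.06 (SE, adjusted p = 0.0233) for *Uhrf1*.

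*Mcm10*, *Prim2* and *Chaf1a* were called lower against vehicle and not against 10 µM, with log2 fold changes from 10 µM to 50 µM of -0.14 ± 0.07 (SE, adjusted p = 0.193), -0.26 ± 0.08 (SE, adjusted p = 0.0509) and -0.13 ± 0.07 (SE, adjusted p = 0.24). *Gins1*, *Pcna* and *Rpa1* were called lower against 10 µM and not against vehicle, at -0.43 ± 0.14 (SE, adjusted p = 0.0475), -0.26 ± 0.06 (SE, adjusted p = 0.0123) and -0.20 ± 0.06 (SE, adjusted p = 0.037). *Cdc7* was the gene that rose, with a log2 fold change of 0.39 ± 0.11 (SE, adjusted p = 0.0233) from 10 µM to 50 µM, although 1 library at 50 µM lay within the 10 µM range. In 30 genes neither contrast gave a call. The mean level fell from vehicle to 10 µM and again to 50 µM in 37 of the 54 genes, against 22.6% of all genes. In 23 of the 54 all 4 of the 50 µM libraries lay below the 8 others, against 6.45% of all genes.

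E2F proteins bind short sequences near gene starts, and these letters were searched for in the promoters of the 54 genes. RefSeq promoter sequences (build GRCm38.p6, 250 bases before to 50 bases after the annotated start) were matched by symbol for 44 of the 54 genes. *Mcm4*, *Gins1*, *Gins2*, *Gins4*, *Pole*, *Prim2*, *Rfc2*, *Tipin*, *Gmnn* and *Ccne2* were not matched. An E2F motif was counted where the window held TTTCCCGC, TTTGGCGC, TTTGCCGC or TTTCGCGC on either strand, and these motifs can overlap each other. Such a motif was present in 16 of the 44 (36.4%), beside 2.61% of the 27025 symbols with a promoter. When the window was cut to the 250 bases before the start, 9 of the 44 held it (20.5%) beside 2.16% of symbols. A match is a run of letters and does not show that a factor was bound.

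Of the 17 matched genes that fell at 50 µM against vehicle 9 held an E2F motif, and of the 27 others 7 did. A site of each of the 9 is printed here, 30 bases long and 5′ to 3′ on the strand of the gene, with each full motif in capitals, so that overlapping motifs form 1 run. They show the letters shared by ring subunits, their loader, a polymerase, the ligase, *E2f2* and *Uhrf1*. The printed sites of *Mcm3*, *Lig1* and *E2f2* lie after the RefSeq start and the others before it, and RefSeq starts can differ from the gene bounds given above.
*Cdc6* site, chr11:98908002-98908031, + strand: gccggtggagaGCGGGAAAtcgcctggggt
*Mcm3* site, chr1:20820275-20820304, - strand: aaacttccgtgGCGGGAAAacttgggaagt
*Mcm5* site, chr8:75109345-75109374, + strand: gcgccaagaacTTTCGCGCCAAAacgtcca
*Mcm6* site, chr1:128359797-128359826, - strand: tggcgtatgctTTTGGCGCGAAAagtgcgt
*Mcm7* site, chr5:138172030-138172059, - strand: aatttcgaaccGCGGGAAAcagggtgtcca
*Pola1* site, chrX:93632275-93632304, - strand: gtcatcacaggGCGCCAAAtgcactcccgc
*Lig1* site, chr7:13278841-13278870, + strand: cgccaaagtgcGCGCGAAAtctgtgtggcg
*E2f2* site, chr4:136172294-136172323, + strand: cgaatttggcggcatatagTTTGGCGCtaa
*Uhrf1* site, chr17:56304117-56304146, + strand: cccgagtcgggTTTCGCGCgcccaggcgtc
For contrast, 4 genes that did not pass the test carried motifs of the same set, after the start in *Cdt1* and *Pold1*, before it in *Orc1* and on both sides of it in *Rfc3*, whose stretch holds 2 motifs.
*Cdt1* site, chr8:122568035-122568064, + strand: gggaactaccttTTTGGCGCcatggcgcaa
*Orc1* site, chr4:108579416-108579445, + strand: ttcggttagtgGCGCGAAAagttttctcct
*Pold1* site, chr7:44548766-44548795, - strand: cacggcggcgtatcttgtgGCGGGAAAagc
*Rfc3* site, chr5:151651200-151651229, - strand: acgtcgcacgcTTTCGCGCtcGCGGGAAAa
The motif was thus found on both sides of the threshold: *Cdt1* and *Pold1* hold it and had log2 fold changes of -0.07 and 0.15, while *Rrm1*, *Rrm2*, *Tyms* and *Dut* fell and had no match in these windows. A CCAAT box (CCAAT, on either strand) was present in 26 of the 44 (59.1%) beside 41.1% of symbols, in 13 of the 17 that fell and in 13 of the 27 others. The 250 bases before the start of *Mcm5* hold both kinds of element and are shown whole, from chr8:75109259-75109508 on the + strand, with the 2 overlapping E2F motifs and the 2 CCAAT boxes in capitals.
*Mcm5* promoter: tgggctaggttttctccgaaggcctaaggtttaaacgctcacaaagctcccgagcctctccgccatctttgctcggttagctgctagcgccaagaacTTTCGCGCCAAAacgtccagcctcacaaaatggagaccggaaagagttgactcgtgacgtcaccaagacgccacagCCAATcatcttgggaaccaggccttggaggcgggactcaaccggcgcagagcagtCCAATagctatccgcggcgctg

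Genes that work beside the 54 were followed in lists of their own. Of 36 further replication factors, 8 fell and 1 rose at 50 µM against vehicle, where 6.5% of all genes fell and 7.0% rose, and the median log2 fold change of the list was -0.19. The largest falls were in *Esco2*, a cohesin acetyltransferase active in S phase (30.4 ± 3.82 CPM to 21.7 ± 1.21 CPM, SD, n = 4, log2 fold change -0.48 ± 0.10 (SE, adjusted p = 0.0067)), in the histone chaperone gene *Asf1b* (-0.46 ± 0.09 (SE, adjusted p = 0.0045)) and in *Clspn*, which encodes the checkpoint mediator claspin (-0.43 ± 0.11 (SE, adjusted p = 0.0232)). The rise was in the origin recognition subunit *Orc4*, from 29.1 to 37.2 CPM on average (0.36 ± 0.09 (SE, adjusted p = 0.0155)). At 10 µM 0 of the 36 passed edgeR's test, with 3 lower and 1 higher at an unadjusted p under 0.05, beside 3.36% and 5.42% of all genes, and 0 passed by DESeq2 or limma-voom.

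Of 17 tested further enzymes of deoxynucleotide metabolism, 5 fell and 1 rose at 50 µM, and the share that rose was near the 7.0% of all genes, where 6.5% fell. *Cmpk2*, a mitochondrial nucleotide kinase that interferon induces, went from 22.4 ± 1.47 CPM to 12.6 ± 2.26 CPM (SD, n = 4), a log2 fold change of -0.83 ± 0.12 (SE, adjusted p = 6.3e-04). *Pnp*, which encodes a purine salvage enzyme, had a log2 fold change of -0.54 ± 0.09 (SE, adjusted p = 0.00212). The mitochondrial kinase gene *Dguok* rose, from 12.2 to 17.1 CPM on average (0.50 ± 0.13 (SE, adjusted p = 0.0258)). In de novo purine synthesis 3 of 12 genes fell and 0 rose: *Pfas* (-0.34 ± 0.10 (SE, adjusted p = 0.0313)), *Gart* (-0.30 ± 0.08 (SE, adjusted p = 0.0253)) and *Ppat* (-0.29 ± 0.09 (SE, adjusted p = 0.0419)), which encodes the first committed enzyme. In de novo pyrimidine synthesis 1 of 5 fell, *Umps* (-0.34 ± 0.09 (SE, adjusted p = 0.0279)), and 0 rose. With 5 genes, a single call says little beside the 6.5% of all genes that fell.

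Of 30 tested further G1/S regulators, 8 fell and 3 rose at 50 µM, beside 6.5% and 7.0% of all genes. The falls were led by *E2f7*, an atypical E2F that represses transcription (-0.60 ± 0.11 (SE, adjusted p = 0.00269)), *Myb*, a factor of proliferating progenitors (-0.58 ± 0.10 (SE, adjusted p = 0.00176)), and *Cdc25a*, the phosphatase that activates cyclin-dependent kinases (-0.57 ± 0.08 (SE, adjusted p = 4.4e-04)). The rises were in the kinase inhibitor genes *Cdkn2b* (2.78 ± 0.632 CPM to 5.74 ± 0.936 CPM, SD, n = 4, log2 fold change 1.05 ± 0.20 (SE, adjusted p = 0.00383)) and *Cdkn1a* (356 ± 23.5 CPM to 479 ± 26.9 CPM, 0.44 ± 0.07 (SE, adjusted p = 0.0018)), and in the cyclin D2 gene *Ccnd2* (320.0 ± 13.3 CPM to 541 ± 65.4 CPM, 0.77 ± 0.09 (SE, adjusted p = 9.3e-05)). At 10 µM 0 of these 30 passed by edgeR, DESeq2 or limma-voom, with 4 lower and 1 higher at an unadjusted p under 0.05 by edgeR, beside 3.36% and 5.42% of all genes, and 0 genes of the 3 nucleotide lists passed by any of these tools, with 1 lower at an unadjusted p under 0.05.

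Mitotic genes were followed as a second sign of cell division. Of 18 mitotic markers 7 fell and 0 rose at 50 µM against vehicle, beside 6.5% and 7.0% of all genes, among them *Cdc20* (-0.45 ± 0.08 (SE, adjusted p = 0.00196)), *Kif20a* (-0.44 ± 0.07 (SE, adjusted p = 0.00176)) and *Plk1* (-0.44 ± 0.10 (SE, adjusted p = 0.00924)). The median of the 18 log2 fold changes was -0.23. Their summed level was 2434 to 3508 CPM in vehicle, 2408 to 3036 CPM at 10 µM and 2425 to 2679 CPM at 50 µM. The overlap of vehicle and 50 µM rested on vehicle replicate 4, at 2434 CPM, and the other 3 vehicle libraries, at 2918 to 3508 CPM, lay above every 50 µM library. At 10 µM 0 of the 18 passed by edgeR, DESeq2 or limma-voom, and 1 was lower at an unadjusted p under 0.05, beside 3.36% of all genes. *Top2a* is counted both here and among the further replication factors. Of the 117 genes tested over the 6 lists beside the 54 genes, 32 fell and 5 rose at 50 µM against vehicle, beside 6.5% and 7.0% of all genes. The count that fell ranged from 21 without vehicle replicate 3 to 41 without vehicle replicate 4 when each library was left out.

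Markers of immature myeloid cells moved in the same libraries as the replication genes, and not all one way. The 10 markers of immature myeloid progenitors, which include genes of primary granule proteins, summed to 1698 to 2424 CPM in vehicle, 1609 to 1795 CPM at 10 µM and 850.0 to 1188 CPM at 50 µM, so that the 50 µM mean was 52.1% of vehicle. Of the 9 of them that were tested, 6 fell and 1 rose at 50 µM, beside 6.5% and 7.0% of all genes. Those that fell were *Mpo*, *Prtn3*, *Elane*, *Ms4a3*, *Ctsg* and *Kit*, the first 5 of which made up most of the sum. The stem and progenitor marker *Cd34* rose, from 25.1 to 37.2 CPM on average (0.58 ± 0.08 (SE, adjusted p = 7.0e-04)), and *Flt3* and *Sox4* had log2 fold changes of 0.02 and -0.08. The 6 monocyte markers summed to 1406 to 1929 CPM in vehicle, 1802 to 1993 CPM at 10 µM and 975 to 1229 CPM at 50 µM, and 4 of the 6 fell at 50 µM, again beside 6.5% of all genes. Their mean sum was 116% of vehicle at 10 µM and 66.7% at 50 µM. The 10 macrophage markers summed to 1737 to 1946 CPM in vehicle, 2081 to 2285 CPM at 10 µM and 1761 to 1883 CPM at 50 µM. The 7 markers of mature neutrophils summed to 11269.8 to 16924 CPM in vehicle, 11334 to 12569 CPM at 10 µM and 9114 to 13309 CPM at 50 µM, which overlapped. Of these 7 the chemokine receptor gene *Cxcr2* (-0.79 ± 0.11 (SE, adjusted p = 6.0e-04)) and the G-CSF receptor gene *Csf3r* (-0.36 ± 0.10 (SE, adjusted p = 0.0279)) fell at 50 µM, and *Mmp9* rose (0.33 ± 0.08 (SE, adjusted p = 0.0109)).

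Markers of other lineages differed in level, and those of mast cells and basophils were well above those of lymphocytes. The 8 B cell markers summed to 19.3 to 27.7 CPM in vehicle, 24.2 to 34.4 CPM at 10 µM and 38.1 to 60.9 CPM at 50 µM, with *Vpreb1* and *Igll1* near 0. Of the 6 tested, 5 were called higher at 50 µM against vehicle, beside 7.0% of all genes, and 0 at 10 µM against vehicle. The 8 T and NK cell markers summed to 8.13 to 20.2 CPM over the 12 libraries, with the lowest at 50 µM and the highest in vehicle, and with *Cd3e*, *Cd3g* and *Ncr1* near 0. The 7 mast cell and basophil markers summed to 386 to 472 CPM in vehicle, 311 to 427 CPM at 10 µM and 434 to 547 CPM at 50 µM. Of these 7, 1 rose and 0 fell at 50 µM against vehicle, where 7.0% of all genes rose. The gene was *Gata2*, at 46.1 CPM on average in vehicle and 101.5 CPM at 50 µM. Of the 8 stromal markers *Col1a2*, *Col3a1*, *Dcn*, *Lum* and *Cxcl12* were near 0, and *Thy1* supplied most of a sum of 174 to 201 CPM in vehicle, 146 to 159 CPM at 10 µM and 278 to 362 CPM at 50 µM. The part of these marker changes in the fall of the replication genes was not tested.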

How the data were processed

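The 54 genes and the lists set beside them were chosen with earlier results of these data known. Per the labels and the study's methods, RNA of unsorted bone marrow cultures was sequenced from stranded mRNA libraries, 4 in each of 3 groups. The authors used Atropos for trimming, HISAT2 2.2.1 for alignment to mm10 and featureCounts 2.0.1 with an Ensembl annotation for the raw counts per gene that they deposited. All 12 columns were matched to samples and 0 columns of per-sample values were left unused. The 10 µM library counted as replicate 3 carries the same number as replicate 2 in its label.

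From these counts, genes above 0.5 CPM in at least 2 of 12 libraries were tested with edgeR 4.0.16 (TMM, quasi-likelihood test) in R 4.3.3, each comparison on its own 8 libraries, with Benjamini-Hochberg adjustment over all 14894 genes and a threshold of 0.05. The authors' own analysis used DESeq2, which here was an alternative (1.42.0), as was limma-voom (limma 3.58.1). The procedure was tested on simulated data. No p was computed for lists or summed levels, and CPM and RPKM were computed from the counts with exon lengths of GENCODE M21 (GRCm38). With 4 libraries a group, precision is set by the spread between libraries, and totals ranged from 20451312 to 28038612.

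Values of every library are given, in each role, for the gene with the highest mean CPM and for those with the largest rise and fall in each comparison among genes called, and other genes of the 54 were named freely. From each further list up to 3 genes called in each direction at 50 µM against vehicle are named, by size of the log2 fold change. The result of 1 gene that this rule names is not reported here. Other settings were another normalization, other filters on low counts, all 12 libraries in 1 fit, the replicate number as a block, each library left out in turn, and, added after seeing the data, an offset that removes the trend with exon length. No pair of libraries in a group agreed within sampling noise.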

Additional observations from a re-analysis of the deposited data

Results flagged for a closer look

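In 11 of the 162 combinations of gene and group (6.79%), 1 library stood apart from its 3 companions by Dixon's criterion for 4 values, where chance gives about 1 in 20. Among the genes called lower at 50 µM against vehicle, *Pola1* was 73.7 CPM in vehicle replicate 1 against 61.8 to 62.5 CPM in the others, and *Chaf1a* was 56.0 CPM in vehicle replicate 4 against 68.5 to 70.5 CPM. *Cdc6* was 39.2 CPM in 10 µM replicate 3 against 42.1 to 42.7 CPM. *Rrm2* was 163 CPM in 50 µM replicate 2 against 170.2 to 171 CPM, and *Tyms* was 40.6 CPM in 50 µM replicate 4 against 51.3 to 53.6 CPM. Without the library concerned, *Pola1*, *Chaf1a*, *Rrm2* and *Tyms* were each still called lower at 50 µM against vehicle.

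Among the other genes, *Rfc1* was 71.3 CPM in vehicle replicate 4 against 107.6 to 108.6 CPM in the other vehicle libraries. In 50 µM replicate 4, *Pola2* was 34.0 CPM against 42.7 to 43.1 CPM and *Chaf1b* was 31.9 CPM against 35.2 to 35.7 CPM. In 50 µM replicate 3, *Gmnn* was 54.7 CPM against 42.7 to 43.8 CPM and *Gins2* was 26.7 CPM against 21.5 to 22.2 CPM. *Gins2* was also 30.2 CPM in 10 µM replicate 1 against 23.5 to 24.3 CPM.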

How the results depend on the processing

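For 50 µM against vehicle, the count of the 54 genes called was 20 and ranged from 19 to 25 over 8 other settings and from 18 to 23 when each library was left out. Of the 20, 16 were called whichever library was left out, and 19 under all 8 other settings. For 50 µM against 10 µM the count was 21, ranged from 18 to 22 over the other settings and from 13 to 20 when each library was left out, the lowest without 10 µM replicate 2. At 10 µM against vehicle it was 0 under all settings run. No called gene changed direction. Of the 54 log2 fold changes at 10 µM against vehicle, none of them called, 16 changed sign when single libraries were left out; among the genes given for every library, *Pcna* ranged from -0.031 to 0.057, *Gins1* from -0.015 to 0.176, *Pold1* from -0.018 to 0.050, *Rpa1* from -0.057 to 0.015, *Ccne2* from -0.094 to 0.068 and *E2f1* from -0.120 to 0.0067, and *Pcna* was -0.010 with the exon-length offset. The summed level of single-strand binding genes at 50 µM ranged from 83.4 to 89.1% of vehicle when each library was left out, and the E2F motif share was 20.5% in the 250 bases before the start. Libraries with the same replicate number had deviations correlated between -0.39 and 0.21, so the numbers were not taken to pair libraries. With the replicate number as a block the counts were 19 at 50 µM against vehicle, 19 at 50 µM against 10 µM and 0 at 10 µM against vehicle, without *Prim2* (adjusted p = 0.0540) in the first and without *Rpa1* (0.0527) and *Slbp* (0.0722) in the second, and at most 1 of 4 libraries correlated best with its own number.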
